A study of Homo sapiens with 5 samples.

Results

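The zinc finger genes of the 19p13.11 to 19p12 cluster were examined after silencing of the long non-coding RNA LINC00958 in Ishikawa, a cell line long established from a human endometrial carcinoma. The 34 genes were taken by symbol from a deposited expression table of 58174 genes, and each symbol matched 1 row. They were selected on cluster and gene family after their TPM fold changes, sh-LINC00958 over sh-NC, had been seen, so their values in that comparison are given as a description with no test. In GENCODE release 29 (GRCh38) they lay on chromosome 19 between 19668796 and 24129961, a span of 4.46 Mb, with 18 on the plus strand and 16 on the minus strand. Cells in 3 libraries were infected with a lentivirus carrying a short hairpin RNA directed at LINC00958 (sh-LINC00958). The cells of the other 2 libraries were infected with a control virus (sh-NC). The labels do not give the hairpin sequences. All had puromycin at 2.5 µg/ml from 72 h after infection, and the libraries were made from 1 µg of RNA with an mRNA kit. Nothing in the labels says that replicates were separate cultures. A p-value here therefore reflects the spread among these 5 libraries, which may be technical.

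These genes encode transcriptional repressors of the KRAB zinc finger family. A KRAB domain at the amino end binds the corepressor TRIM28, which brings in the histone methyltransferase SETDB1, HP1 proteins and the NuRD deacetylase complex. An array of zinc fingers at the carboxyl end reads DNA, and many members of the family bind transposable elements. The cluster grew by tandem duplication in primates. Its genes therefore resemble each other in sequence and in layout.

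The annotated proteins had that layout. In the longest coding transcript of each gene, a search for the finger pattern (cysteines 2 residues apart, a loop of 12, then histidines 3 to 5 apart) found a median of 13 fingers per gene. The count was highest in ZNF208 (36), ZNF729 (34) and ZNF91 (31). ZNF738 had 0 fingers in 137 residues, and the other members had at least 8. A pattern for the core of the KRAB domain was found in 30 members and missed in 4, ZNF714, ZNF43, ZNF492 and ZNF99. A missed pattern says only that these residues were not in the transcript searched.

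The promoters of the cluster shared a layout too, and the sequences below are shown because their words recur from gene to gene while the expression values of these genes differ. RefSeq windows (GRCh38.p14, 250 bases before to 50 after the start) were at hand for 27 members, with a median GC content of 56.0% (50.7% to 63.7%), against 58.7% over all 34943 windows. A word with a CCAAT box, TCCAATCAG, was held on either strand by 27 of 27 member windows and by 0.853% of all windows. It occurred at least 2 times in 13 of them. The word CTTCCGG, the core bound by ETS factors, was held by 19 member windows (70.4%) and by 10.2% of all windows. Both words were picked after the member windows had been read, so their shares there are a description. No window was used for ZNF676, ZNF738, ZNF729, ZNF253, ZNF99, ZNF506 and ZNF98. Capitals mark TCCAATCAG and CTTCCGG, and each sequence runs 5′ to 3′ on the strand of the gene.
ZNF254, chr19:24086937-24087236, plus strand: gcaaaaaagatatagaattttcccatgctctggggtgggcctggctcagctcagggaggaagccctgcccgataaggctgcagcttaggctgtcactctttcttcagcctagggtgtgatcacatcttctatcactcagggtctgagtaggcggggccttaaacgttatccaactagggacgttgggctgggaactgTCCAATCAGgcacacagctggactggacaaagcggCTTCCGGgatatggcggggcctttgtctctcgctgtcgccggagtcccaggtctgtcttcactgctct
ZNF726, chr19:23914636-23914935, plus strand: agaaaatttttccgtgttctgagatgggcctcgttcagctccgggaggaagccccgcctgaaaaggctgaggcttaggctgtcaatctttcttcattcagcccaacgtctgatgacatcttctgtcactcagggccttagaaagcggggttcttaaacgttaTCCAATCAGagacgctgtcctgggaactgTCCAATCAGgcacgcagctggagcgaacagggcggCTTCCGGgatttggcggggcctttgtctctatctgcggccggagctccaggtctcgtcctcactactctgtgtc
ZNF431, chr19:21141790-21142089, plus strand: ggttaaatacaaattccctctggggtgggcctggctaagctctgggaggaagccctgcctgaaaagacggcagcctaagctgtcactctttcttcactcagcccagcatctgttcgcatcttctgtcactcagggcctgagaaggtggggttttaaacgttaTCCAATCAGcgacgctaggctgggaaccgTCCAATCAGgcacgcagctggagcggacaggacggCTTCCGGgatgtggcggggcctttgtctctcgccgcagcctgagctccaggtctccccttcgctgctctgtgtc
ZNF714, chr19:21081953-21082252, plus strand: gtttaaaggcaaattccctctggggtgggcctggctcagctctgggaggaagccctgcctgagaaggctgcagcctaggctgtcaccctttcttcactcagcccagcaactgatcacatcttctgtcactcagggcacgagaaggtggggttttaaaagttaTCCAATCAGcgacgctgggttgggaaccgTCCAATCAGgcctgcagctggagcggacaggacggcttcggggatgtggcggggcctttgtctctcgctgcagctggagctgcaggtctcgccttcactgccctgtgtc
ZNF675, chr19:23687163-23687462, minus strand: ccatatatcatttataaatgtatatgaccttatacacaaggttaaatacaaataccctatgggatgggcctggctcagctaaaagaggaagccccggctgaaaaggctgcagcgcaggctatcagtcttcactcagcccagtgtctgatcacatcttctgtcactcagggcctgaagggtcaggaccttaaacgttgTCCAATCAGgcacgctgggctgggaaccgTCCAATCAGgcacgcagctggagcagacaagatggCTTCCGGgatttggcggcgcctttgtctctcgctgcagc
ZNF431 and ZNF714 are neighbours in the cluster, and their windows were the most alike of 351 member pairs, with 91.0% of aligned bases identical without gaps, against a median of 52.7%. CTTCCGG was found in the ZNF431 window and not in that of ZNF714. Both windows held TCCAATCAG 2 times, as did those of ZNF726 and ZNF675, while ZNF254 held it 1 time. The RefSeq start used for ZNF254 lies inside the longer gene that GENCODE annotates.

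**Figure D1:**
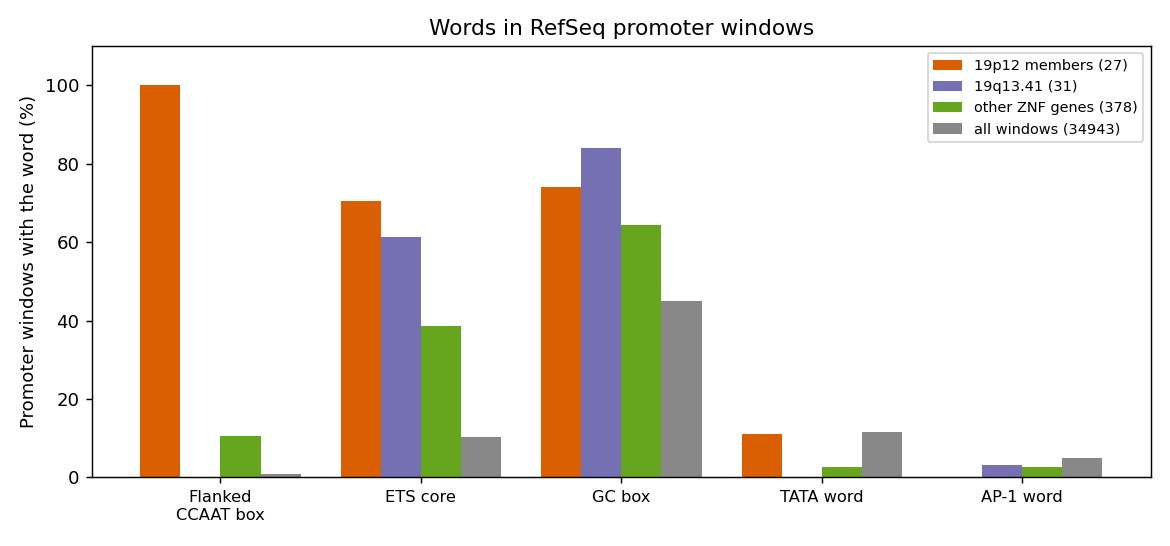
Share of promoter windows (vertical axis, %) that held each of 5 words on either strand, in 27 member windows, 31 windows of 19q13.41 zinc finger genes, 378 windows of other ZNF-numbered genes (which include those of 19q13.41) and all 34943 windows. The flanked CCAAT box was held by 27 of 27 member windows, 0 of 31 at 19q13.41 and 0.853% of all windows, while the GC box was frequent in every set.

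A comparison with other zinc finger genes placed the shared words. Among 31 windows of the zinc finger cluster at 19q13.41, 0 held TCCAATCAG and 19 held CTTCCGG (61.3%). Among 378 windows of ZNF-numbered genes outside the member list, 40 held TCCAATCAG (10.6%) and 146 held CTTCCGG (38.6%). The GC box GGGCGG was found in 74.1% of member windows, 83.9% at 19q13.41, 64.3% of other ZNF-numbered genes and 44.9% of all windows. For TATAAA the shares were 11.1%, 0.0%, 2.65% and 11.6% in the same order. The AP-1 word TGACTCA was found in 0 member windows, 3.23% at 19q13.41, 2.65% of other ZNF-numbered genes and 4.96% of all windows.

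LINC00958 checked the labels. It had 67.2, 67.1 and 58.4 TPM in sh-LINC00958 libraries and 119.3 and 137.4 TPM in sh-NC libraries. TPM is the reads of a transcript divided by its length and scaled to a fixed total per library, so the sequencing depth is unknown. The log2 fold change was -0.99 with a limma adjusted p of 0.0119. The exact permutation p, two-sided, was 0.1, and a design of 5 libraries can reach no smaller value. Epithelial markers (EPCAM, KRT8, KRT18, KRT19, CDH1 and PAX8) summed to 2334 to 2514 TPM in sh-LINC00958 and 2349 to 2359 TPM in sh-NC. Of these 6, KRT18 passed the test (log2 fold change 0.44, limma adjusted p = 0.021). KRT8 and KRT19 were higher, and EPCAM and PAX8 lower, in every sh-LINC00958 library than in either sh-NC library. Markers of other cells were low: endothelial genes summed to 4.39 to 5.89 TPM in sh-LINC00958 and 6.46 to 6.88 TPM in sh-NC, fibroblast genes to 5.31 to 5.87 and 4.95 to 5.10 TPM, and blood genes to 3.04 to 3.77 and 1.80 to 2.67 TPM. The part of these other cells in the members' values was not tested. The fibroblast gene DCN and the T cell gene CD3E were listed at 0 in every library. On the first principal component of all tested genes (51.1% of variance), sh-LINC00958 replicate 2 lay nearest its opposite group, at 10.1, with 24.3 and 30.7 for the other sh-LINC00958 libraries and -29.9 and -35.2 for sh-NC.

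Most of the cluster was expressed. Mean TPM over the 5 libraries was at least 10 in 20 members and at least 5 in 29, with a median of 12.5 TPM over all 34. ZNF714 stood highest, at 105.1, 83.7 and 71.5 TPM in sh-LINC00958 and 63.1 and 90.1 TPM in sh-NC. ZNF43 came next, with 29.4, 33.9 and 30.4 TPM in sh-LINC00958 and 23.4 and 37.3 TPM in sh-NC. For both genes the values of the 2 groups overlapped, and the sh-NC libraries lay farther apart than the group means. ZNF738, ZNF93 and ZNF675 followed in level. Under a mean of 1 TPM, and so outside the test, were ZNF90, ZNF729 and ZNF99. ZNF90 had 0.137, 0.258 and 0.446 TPM in sh-LINC00958 and was listed at 0 and 0.134 TPM in sh-NC. ZNF729 had at most 0.522 TPM in any library. ZNF99 had 0.307, 0.516 and 0.494 TPM in sh-LINC00958 and 0.553 and 1.02 TPM in sh-NC.

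**Figure D2:**
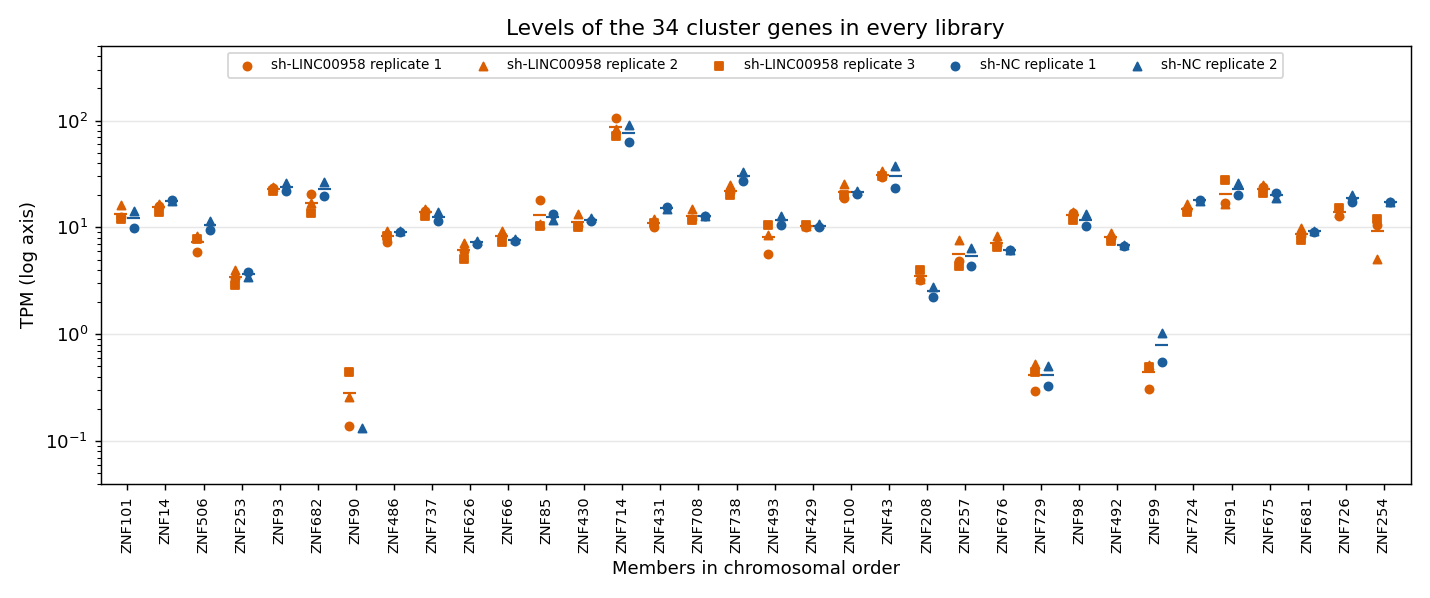
TPM (vertical log axis) of the 34 members in chromosomal order, with 3 sh-LINC00958 libraries in orange and 2 sh-NC libraries in blue; horizontal lines are group means, and the sh-NC library in which ZNF90 is listed at 0 is not drawn, nor is that group's mean. Most members lie between 5 and 30 TPM with mixed colours, ZNF714 stands highest, and ZNF254 shows 3 orange points, the lowest at 5.04 TPM, under blue points at 17.2 and 17.4 TPM.

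Summed over all 34 members, the level was 482.1, 493.1 and 444.9 TPM in sh-LINC00958 and 459.4 and 542.8 TPM in sh-NC. This came to 473.4 ± 25.3 TPM (SD, n = 3) in sh-LINC00958 and 501.1 ± 59.0 TPM (SD, n = 2) in sh-NC, and the 2 groups overlapped. For 31 members with a mean of at least 1 TPM, the log2 fold change of sh-LINC00958 over sh-NC, computed on TPM + 1, had a median of -0.05, with 13 members above 0 and 18 below. In 23 of the 31 the fitted change was smaller than 0.25 in size. In bulk RNA, fewer cells that express a gene and less RNA per cell cannot be told apart.

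By limma, with p-values adjusted by Benjamini-Hochberg across 17049 genes, 0 of the 31 members passed an adjusted p of 0.05, where 9.8% of all tested genes did. At an unadjusted p under 0.05 there were 5, each lower in sh-LINC00958. Of all tested genes, 16.3% had such a p in the lower direction and 30.7% in either direction. In 20 members the 2 groups overlapped, 8 had every sh-LINC00958 value below both sh-NC values and 3 had every value above. Of all tested genes 49.9% had groups that did not overlap, 25.5% downwards and 24.4% upwards. Without sh-LINC00958 replicate 2, 1 of the 31 was past the adjusted threshold, in the lower direction, beside 8.72% of all genes. With a trend on GC content and length removed, 2 were past it in the higher direction and 0 in the lower, beside 2.06% and 2.39% of all genes. Since the members were chosen with this comparison in view, nothing is read from these counts.

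ZNF254, at the centromeric end of the cluster, had the lowest fold change. It measured 10.5, 5.04 and 12.1 TPM in sh-LINC00958 and 17.2 and 17.4 TPM in sh-NC. Every sh-LINC00958 library was below both controls, and replicate 2 was below its own group. It averaged 9.19 ± 3.69 TPM (SD, n = 3) in sh-LINC00958 and 17.3 ± 0.188 TPM (SD, n = 2) in sh-NC. The log2 fold change was -0.92 (standard error 0.33). Leaving out sh-LINC00958 replicate 2 brought the log2 fold change of ZNF254 to -0.58. Of its 50-base words, 10.1% also occur in other annotated transcripts, the most with AC092279.1, a lincRNA that overlaps it on the same strand.

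Its neighbour ZNF726 differed less. ZNF726 had 12.8, 13.6 and 15.1 TPM in sh-LINC00958 and 17.1 and 20.3 TPM in sh-NC, so the groups did not overlap. Its log2 fold change was -0.41 (standard error 0.13). ZNF681 and ZNF675, the next genes along, showed no such separation. ZNF675, which encodes an inhibitor of TRAF6 signalling, had 23.7, 24.8 and 20.9 TPM in sh-LINC00958 and 21.2 and 19.04 TPM in sh-NC. ZNF681 had 8.36, 9.89 and 7.60 TPM in sh-LINC00958 and 9.10 and 9.34 TPM in sh-NC. Within this stretch of the cluster, neighbours thus had fold changes of -0.92, -0.41, -0.09 and 0.19.

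In the middle of the cluster ZNF431, ZNF738 and ZNF493 were lower in each sh-LINC00958 library. ZNF431 had 10.02, 12.02 and 10.9 TPM in sh-LINC00958 and 15.6 and 14.8 TPM in sh-NC (log2 fold change -0.44, standard error 0.12). ZNF738, whose annotated protein has no finger, had 21.3, 25.04 and 19.9 TPM in sh-LINC00958 and 27.2 and 33.4 TPM in sh-NC. Its log2 fold change was -0.44 (standard error 0.14). ZNF493 had 5.62, 8.45 and 10.45 TPM in sh-LINC00958 and 10.55 and 12.9 TPM in sh-NC, groups that touch without overlapping. Its log2 fold change was -0.50 (standard error 0.25). Without sh-LINC00958 replicate 1 its log2 fold change was -0.28. Genes beside them had overlapping groups. ZNF714, whose promoter window is the closest to that of ZNF431, had a log2 fold change of 0.18, which lay between -0.07 and 0.44 when a library was left out. ZNF708, between ZNF431 and ZNF738, had 12.1, 14.7 and 11.7 TPM in sh-LINC00958 and 12.7 and 12.9 TPM in sh-NC.

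Toward the telomeric end, ZNF506 and ZNF14 were also lower in each sh-LINC00958 library. ZNF506 had 5.87, 8.25 and 7.84 TPM in sh-LINC00958 and 9.51 and 11.5 TPM in sh-NC (log2 fold change -0.47, standard error 0.18). ZNF14 had 15.8, 16.4 and 14.0 TPM in sh-LINC00958 and 18.0 and 17.7 TPM in sh-NC, a smaller distance. Its log2 fold change was -0.20 (standard error 0.11). The eighth member with separated groups was ZNF724, which shares sequence with an overlapping annotation, at 14.5, 16.5 and 13.9 TPM in sh-LINC00958 and 18.2 and 17.6 TPM in sh-NC. Of all tested genes, 25.5% had groups separated in this direction. ZNF682 had a log2 fold change of -0.43, but its groups overlapped, with 20.6, 16.9 and 13.5 TPM in sh-LINC00958 and 19.7 and 26.5 TPM in sh-NC.

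Members on the other side were ZNF208, ZNF492 and ZNF676, higher in each sh-LINC00958 library. ZNF208, the gene with the most fingers, had 3.21, 3.29 and 4.03 TPM in sh-LINC00958 and 2.25 and 2.78 TPM in sh-NC. Its log2 fold change was 0.36 (standard error 0.16). ZNF676 had 6.83, 8.26 and 6.53 TPM in sh-LINC00958 and 6.19 and 6.21 TPM in sh-NC. ZNF492, which shares sequence with ZNF98, had 8.01, 8.90 and 7.46 TPM in sh-LINC00958 and 6.73 and 6.86 TPM in sh-NC. Groups were separated upwards in 24.4% of all tested genes.

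**Figure D3:**
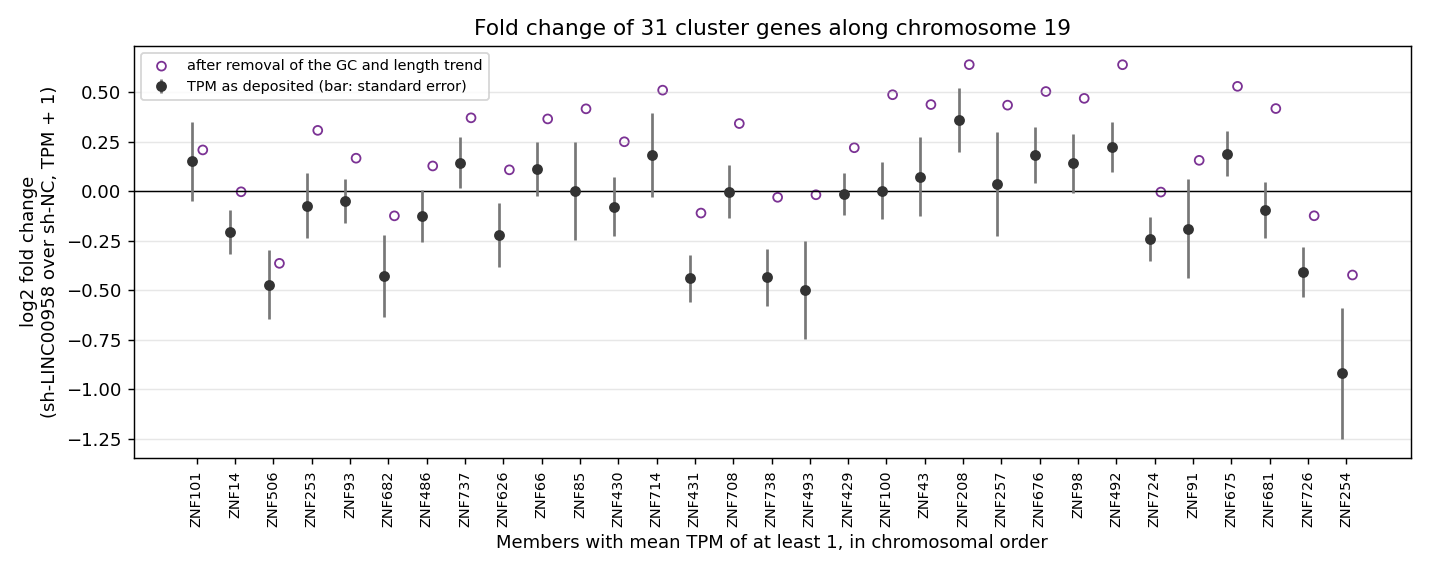
Log2 fold change of sh-LINC00958 over sh-NC on TPM + 1 (vertical axis) for 31 members in chromosomal order; filled points are from TPM as deposited with bars of 1 standard error, and open circles follow removal of a trend on transcript GC content and length. ZNF254 lies lowest at -0.92 and ZNF208 highest at 0.36 among the filled points, and the open circles have a median of 0.25 against -0.05 for the filled points.

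ZNF91 and ZNF93, members with well-studied retroelement targets, each gave overlapping groups. ZNF91, which represses SVA elements in primates, had 16.9, 16.6 and 27.9 TPM in sh-LINC00958 and 19.96 and 26.0 TPM in sh-NC. Replicate 3 alone of its group was high, and the log2 fold change was -0.19 (standard error 0.25). ZNF93, which represses the L1PA family of LINE-1 elements, had 23.5, 23.9 and 21.9 TPM in sh-LINC00958 and 22.0 and 26.0 TPM in sh-NC. Its log2 fold change was -0.05 (standard error 0.11). Neither a change nor its absence is read from these values.

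Single libraries stood out in a few other members. ZNF85 had 17.9, 10.7 and 10.3 TPM in sh-LINC00958 and 13.3 and 11.8 TPM in sh-NC, so that replicate 1 was above both sh-NC values and the other sh-LINC00958 libraries were below them. ZNF257 had 4.85, 7.60 and 4.31 TPM in sh-LINC00958 and 4.32 and 6.43 TPM in sh-NC, with 1 high library on each side. ZNF429 was the steadiest member in sh-LINC00958, with 9.998, 10.2 and 10.5 TPM, and had 10.03 and 10.7 TPM in sh-NC. The within-group SD on the log2 scale had a median of 0.152 over the tested members and 0.154 over all tested genes. Replicate 2 was the highest sh-LINC00958 library for 24 of 34 members, and replicate 2 was the higher sh-NC library for 28. The median deviation from each gene's mean log2 level was 0.085 and 0.112 in these libraries over the tested members. Over all tested genes it was 0.020 and 0.022, also the highest of each group.

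The other members had overlapping groups, with log2 fold changes between -0.22 (ZNF626) and 0.15 (ZNF101). ZNF101 had 12.4, 16.1 and 11.97 TPM in sh-LINC00958 and 9.90 and 14.4 TPM in sh-NC. ZNF737 had 14.4, 14.8 and 12.9 TPM in sh-LINC00958 and 11.5 and 13.8 TPM in sh-NC. In both genes the lowest library was sh-NC replicate 1. ZNF66 had 8.26, 9.35 and 7.37 TPM in sh-LINC00958 and 7.51 and 7.71 TPM in sh-NC, and ZNF98 had 13.5, 13.9 and 11.8 TPM in sh-LINC00958 and 10.3 and 13.3 TPM in sh-NC. ZNF626 had 6.06, 7.16 and 5.11 TPM in sh-LINC00958 and 6.94 and 7.52 TPM in sh-NC, with replicate 3 of sh-LINC00958 lowest. ZNF486 had 7.37, 9.19 and 8.38 TPM in sh-LINC00958 and 9.01 and 9.22 TPM in sh-NC. ZNF430 and ZNF100 were centred near 0: ZNF430 had 10.2, 13.2 and 10.1 TPM in sh-LINC00958 and 11.4 and 12.2 TPM in sh-NC, and ZNF100 had 19.05, 25.4 and 20.2 TPM in sh-LINC00958 and 20.8 and 22.0 TPM in sh-NC. ZNF253 was low, between 2.90 and 3.98 TPM in sh-LINC00958 and at 3.82 and 3.43 TPM in sh-NC.

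Near-identical sequence makes some values uncertain. ZNF98 shared 58.0% of its 50-base words with other annotated genes, most of them with ZNF492 (54.1%), and ZNF492 shared 29.4% of its own with ZNF98. Reads of these genes could be split between them. ZNF724 shared 53.4% with AC092329.3, an annotation that overlaps it on the same strand. For the other 31 members the share was under 11%. A gene on the other strand overlapped 27 members, and a gene on the same strand 14. The strand setting is not given in the sources used here, so reads of overlapping partners cannot be told apart.

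Genes of the cluster outside the member list gave a mixed picture. ZNF730 had 7.21, 7.14 and 5.37 TPM in sh-LINC00958 and 11.7 and 9.81 TPM in sh-NC, with a log2 fold change of -0.64 (limma adjusted p = 0.0654). ZNF728 had 13.39, 15.5 and 14.9 TPM in sh-LINC00958 and 9.30 and 11.5 TPM in sh-NC, with a log2 fold change of 0.46 (limma adjusted p = 0.0859). ZNF723 was low, with 0.857, 1.64 and 0.590 TPM in sh-LINC00958 and 1.05 and 1.35 TPM in sh-NC (log2 fold change -0.15, limma adjusted p = 0.738). All 3 missed the threshold. Among all 35 measured non-member genes inside the span, 1 was called (2.86%), beside 9.8% of all tested genes. It was VN1R83P, a pseudogene of a vomeronasal receptor, which rose (log2 fold change 0.72). It was singled out after its value was seen.

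The fold changes of the cluster were set beside those of other gene sets. The 39 measured zinc finger genes of 19q13.41 had a median log2 fold change of 0.20, with 7 called higher and 0 lower, beside 4.12% and 5.68% of all genes. Other ZNF-numbered genes had a median of 0.11 on chromosome 19 (198 genes, which include many of those at 19q13.41) and 0.06 elsewhere (212 genes). Over all genes tested the median was 0.00. The difference between these sets was not tested.

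Base composition moved with the comparison. Member transcripts had a median GC content of 37.5% (33.91% to 44.98%), against 48.2% for all tested genes. Other tested genes within that GC range, 6148 in number, had a median log2 fold change of -0.21, with 750 called lower (12.2%) and 77 called higher (1.25%). The members, at -0.05, thus lay above other genes within their GC range, whose median GC content was 40.8%. Zinc finger genes of 19q13.41, with a median GC content of 41.5%, also lay above that set, at 0.20. These differences were not tested. When a trend on transcript GC content and exon length was removed from each library, the member median became 0.25, and 22 of 31 were above 0. After the same step, 33 of 39 zinc finger genes of 19q13.41 were above 0, with a median of 0.41. For other ZNF-numbered genes on chromosome 19 it was 156 of 198, and for all tested genes 8020 of 16999. Among the members, some values moved more than others. ZNF492 then had a log2 fold change of 0.64 and ZNF675 of 0.53. ZNF254 and ZNF506 kept negative values of -0.42 and -0.36, ZNF431 and ZNF726 had -0.11 and -0.12, and ZNF738 and ZNF493 were near 0, at -0.03 and -0.02. The direction of the cluster's median therefore depends on this step. The part of base composition in the members' values was not tested.

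**Figure D4:**
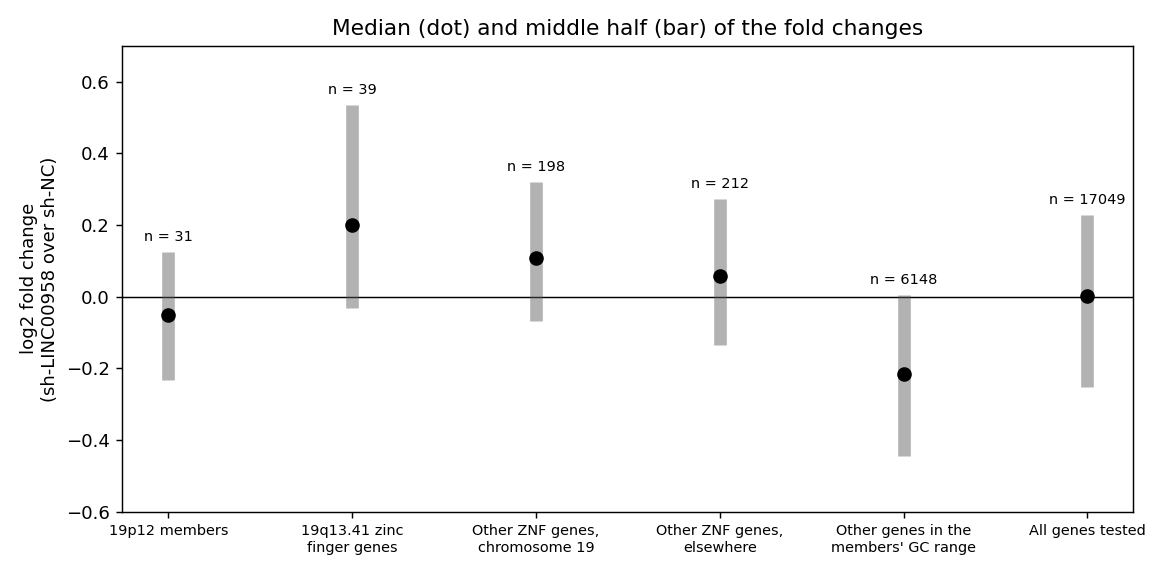
Median (dot) and interquartile range (bar) of the log2 fold changes of sh-LINC00958 over sh-NC (vertical axis) in 6 gene sets that overlap in part, with the number of tested genes above each bar. The 31 members have a median of -0.05, the 19q13.41 zinc finger genes 0.20, other genes in the GC range of the members -0.21 and all tested genes 0.00.

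Fold changes within the cluster were set against other features. Over 31 members, which share their libraries, Spearman's rho of the fold change was 0.099 with transcript GC content, -0.242 with exon length, 0.081 with position, 0.095 with the number of fingers and -0.073 with mean level. Pearson's r was 0.180, -0.357, -0.092, 0.234 and -0.061 in the same order. These are descriptions without a test.

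The partners through which KRAB zinc finger proteins act were examined next, as a list of 37 measured genes. Of these, 2 rose, 7 fell and 28 did not pass, beside 4.12% and 5.68% of all genes, with a list median of -0.02. The list was chosen with earlier results of these data known, so its calls and p-values are given as a description. TRIM28 itself had 334.7, 283.4 and 338.3 TPM in sh-LINC00958 and 319.6 and 337.7 TPM in sh-NC (adjusted p = 0.779 in limma, log2 fold change -0.05 with a 95% interval of -0.29 to 0.20). SETDB1 had 55.8, 59.0 and 55.4 TPM in sh-LINC00958 and 52.8 and 53.9 TPM in sh-NC (log2 fold change 0.09, limma adjusted p = 0.498). Neither the scaffold nor its methyltransferase passed the test.

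Among the HP1 proteins, which bind methylated histone H3, CBX3 fell. It had 120.4, 125.8 and 117.1 TPM in sh-LINC00958 and 187.2 and 200.4 TPM in sh-NC (log2 fold change -0.67 ± 0.075, SE, limma adjusted p = 0.0126). CBX5 fell too, with 39.3, 45.5 and 35.7 TPM in sh-LINC00958 and 60.0 and 61.6 TPM in sh-NC (log2 fold change -0.59, limma adjusted p = 0.0379). The HP1 gene CBX1 did not pass. It had 99.7, 108.2 and 97.3 TPM in sh-LINC00958 and 98.2 and 107.7 TPM in sh-NC (log2 fold change -0.02, limma adjusted p = 0.913). The TRIM28 relatives TRIM33 and TRIM24 fell as well. TRIM33 had 25.5, 26.2 and 25.2 TPM in sh-LINC00958 and 50.8 and 47.1 TPM in sh-NC (log2 fold change -0.91 ± 0.086, SE, limma adjusted p = 0.0089). TRIM24 had 28.8 ± 2.57 TPM (SD, n = 3) in sh-LINC00958 and 43.5 ± 2.96 TPM (SD, n = 2) in sh-NC (log2 fold change -0.58, limma adjusted p = 0.0333). ATRX, a chromatin remodeler of repeats, also fell (log2 fold change -0.55, limma adjusted p = 0.0464).

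Subunits of NuRD moved in both directions. HDAC1, a deacetylase, rose to 198.5 ± 1.69 TPM (SD, n = 3) in sh-LINC00958, against 159.1 ± 4.50 TPM (SD, n = 2) in sh-NC (log2 fold change 0.32, limma adjusted p = 0.04). GATAD2A rose to 77.3 ± 8.77 TPM (SD, n = 3) in sh-LINC00958, against 48.3 ± 0.244 TPM (SD, n = 2) in sh-NC (log2 fold change 0.66, limma adjusted p = 0.0271). Its paralog GATAD2B fell (log2 fold change -0.50, limma adjusted p = 0.0416), as did MTA3 (log2 fold change -0.48, limma adjusted p = 0.0438). Once the trend on GC content and length was taken out, 4 of these genes were no longer called. CBX5 then had a log2 fold change of -0.46 (limma adjusted p = 0.0621), TRIM24 -0.44 (0.0543), GATAD2A 0.51 (0.076) and ATRX -0.21 (0.214). When replicate 1 of sh-LINC00958 or either sh-NC library was left out, 0 genes of this list were called, and without replicate 3 of sh-LINC00958 0 rose and 2 fell. Over the 5 fits that left out a library, the log2 fold change lay between -0.72 and -0.62 for CBX3, -0.96 and -0.85 for TRIM33 and 0.57 and 0.73 for GATAD2A.

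Genes outside the KRAB zinc finger family on both sides of the cluster gave 3 rises and 1 fall among 21 measured, beside 4.12% and 5.68% of all genes called higher and lower. This list too was chosen with earlier results of these data known, so its calls and p-values are a description. GATAD2A, already described, lies just beyond the telomeric end. SUGP1, a splicing factor gene, rose to 44.1 ± 6.41 TPM (SD, n = 3) in sh-LINC00958, against 23.7 ± 0.299 TPM (SD, n = 2) in sh-NC (log2 fold change 0.86, limma adjusted p = 0.0234). On 19q12, C19orf12 rose (log2 fold change 0.84, limma adjusted p = 0.0299) and CCNE1, which encodes cyclin E1, fell (-0.42, limma adjusted p = 0.0305). The list median was 0.15, and its transcripts had a median GC content of 59.6%, far above that of the members. With the GC and length trend removed, the list median became -0.01, with 9 of 21 above 0, against 16 before. When replicate 1 of sh-LINC00958 or either sh-NC library was left out, 0 of these genes were called, and without replicate 3 of sh-LINC00958 there was 1 rise and 0 falls. Over the fits that left out a library, the log2 fold change stayed between 0.74 and 0.93 for SUGP1, 0.73 and 0.95 for C19orf12, and -0.45 and -0.40 for CCNE1.

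Genes made of retroelement sequence, which the protein products of such clusters can bind, were measured in part. Of 9 in the table, 3 had a mean of at least 1 TPM and 0 passed in limma, while 1 had an unadjusted p under 0.05. As with the other lists, earlier results of these data were known when it was chosen, so the p-values are a description. ERVK13-1 had 7.31, 7.18 and 8.49 TPM in sh-LINC00958 and 10.9 and 12.3 TPM in sh-NC (log2 fold change -0.54, limma adjusted p = 0.0545). With a filter of 5 TPM in place of 1, ERVK13-1 passed, with a limma adjusted p of 0.0441, and the other alternatives gave adjusted p-values up to 0.241. ERV3-1 averaged 11.5 ± 0.744 TPM (SD, n = 3) in sh-LINC00958 and 12.8 ± 0.810 TPM (SD, n = 2) in sh-NC (limma adjusted p = 0.42). ERVMER34-1 averaged 10.4 ± 0.2504 TPM (SD, n = 3) in sh-LINC00958 and 10.6 ± 0.990 TPM (SD, n = 2) in sh-NC (limma adjusted p = 0.922). Transposable elements themselves were not analysed here.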

How the data were processed

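RNA sequencing was available for 5 libraries of Ishikawa cells, 3 sh-LINC00958 and 2 sh-NC, grouped by their titles. The authors deposited TPM per gene. Per the submitters' processing notes, FastQC 0.11.2, Trimmomatic 0.36, HISAT2 2.0 and StringTie 1.3.3b were used with GRCh38, and the annotation release is not given in the sources used here. TPM holds no depth, so no counting interval is given, and a value states a share of the library's RNA. The comparison used log2(TPM + 1), genes with a mean TPM of at least 1, and limma 3.58.1 in R 4.3.3 (lmFit, eBayes with a trend), two-sided, p-values being adjusted by Benjamini-Hochberg across the 17049 genes that passed, at a threshold of 0.05. The code of the fit was also run on simulated data with added changes and independent noise. That simulation held no GC trend, so nothing about these data is read from it. GENCODE release 29 gave coordinates for 57836 of the gene IDs. It also gave the exon length of each gene, with all its exons merged, and the GC content of its longest transcript. For the trend removal, natural splines with 4 degrees of freedom in GC content and in log2 exon length were fitted per library. Promoter windows came from RefSeq (GRCh38.p14).

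All members are named, in full where a group mean was at least 5 TPM. Of the other lists, each gene past the threshold is named or, with none, the 3 with the smallest p, plus TRIM28, SETDB1 and CBX1. Fold changes on TPM + 1 understate those of low genes. The members and lists were chosen with earlier results of these data known. Alternatives were other pseudocounts (0.1 and 5), other filters, median-ratio and quantile scaling, no trend, GC and length trend removal, a replicate block, and leaving out each library.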

Additional observations from a re-analysis of the deposited data

How the results depend on the processing

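All genes gave 702 higher and 969 lower calls. Without a filter there were 207 and 269, with eBayes without the trend 371 and 518, with the GC and length trend removed 351 and 406, and with a replicate block 0 and 2. Leaving out a library gave 10 to 904 higher and 6 to 1486 lower. The corepressor list (2 higher, 7 lower) gave 0 and 2 without a filter, 1 and 2 without the trend, 1 and 4 with the GC and length trend removed, 0 and 0 with the block, and 0 to 2 and 0 to 8 when a library was left out. The flanking list (3 higher, 1 lower) gave 0 and 0 without a filter, 3 and 0 without the trend, 2 and 2 with the GC and length trend removed, 0 and 0 with the block, and 0 to 4 and 0 to 1 when a library was left out. For the members, 2 were called higher with the GC and length trend removed and 0 to 1 lower when a library was left out (ZNF254, without sh-LINC00958 replicate 2), and every other alternative gave 0.

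The member median log2 fold change became 0.25 with the GC and length trend removed and stayed between -0.13 and -0.01 when a library was left out. The 19q13.41 median was 0.15 with a pseudocount of 5, 0.41 with the GC and length trend removed, 0.32 with the block, and 0.15 to 0.32 when a library was left out. The median of other ZNF-numbered genes was 0.14 with the trend removed. LINC00958 had a log2 fold change of -0.92 with the block (adjusted p = 0.104) and -1.09 to -0.89 when a library was left out. Its call was lost when replicate 1 of sh-LINC00958 or either sh-NC library was dropped. Causes were not tested. Of 432 recomputed member fold changes, 33 moved by more than the within-group SD, 28 of them with the GC and length trend removed. Replicate numbers 1 and 2 were shared by both groups, but same-numbered libraries did not deviate together (correlations 0.001 and 0.05), so the block pairs libraries by number only. Since sh-LINC00958 replicate 3 has no sh-NC partner, the block gave the same fold changes as leaving it out (member median -0.015, LINC00958 -0.92). The block also leaves fewer residual degrees of freedom than the main fit, so its counts of calls are not like for like.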
